A study of Mus musculus with 6 samples.

Results

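The plasminogen activators and their inhibitors were followed here through 7 genes, taken by name: the activators Plau and Plat, the receptor Plaur, the inhibitors Serpine2 and Serpinb2, and the coagulation genes F3 and Thbd. They are 7 of the 21485 genes that all 6 count matrices shared, and all 7 passed the filter on low counts in each comparison. The samples were cultured mouse muscle-derived stem/progenitor cells (MDSPCs), slowly adhering cells obtained from digested skeletal muscle by serial replating on collagen. The young group holds 3 populations isolated from young mice and the old group 3 populations from old mice, all grown in the same serum-rich proliferation medium and read out cell by cell from the 3′ ends of their transcripts in droplets. The labels state no age in months, strain, sex, genotype or treatment, and do not say how many mice gave a population, so n counts populations.

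Plasminogen is an inactive protein of blood and serum. The proteases urokinase (Plau) and tissue-type activator (Plat) cut it into plasmin, which dissolves fibrin and other matrix proteins. Urokinase does this while bound to its receptor on the cell surface (Plaur). Inhibitors of the serpin family, among them Serpine2 and Serpinb2, trap the activators, and Serpine2 also traps thrombin. Tissue factor (F3) starts coagulation, and thrombomodulin (Thbd) binds thrombin and turns it towards activating the anticoagulant protein C. In skeletal muscle, urokinase and plasmin are known for their part in regeneration after injury.

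RefSeq promoter sequences (GRCm38.p6) were given for 4 of the 7 genes, and those of Plaur, Serpinb2 and F3 are shown because each held the 7-letter binding motif of AP-1, the Fos and Jun family of transcription factors, whose genes are described further on. Each line gives the 250 bases before the annotated transcript start, 5′ to 3′ on the gene's strand, and the capitals mark TGANTCA, which reads the same on both strands and overlaps no other motif searched.
Plaur, chr7:24462233-24462482, plus strand: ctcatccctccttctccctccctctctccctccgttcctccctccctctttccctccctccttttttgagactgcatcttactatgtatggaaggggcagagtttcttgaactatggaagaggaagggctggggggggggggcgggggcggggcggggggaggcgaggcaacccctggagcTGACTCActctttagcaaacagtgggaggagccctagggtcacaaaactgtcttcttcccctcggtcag
Serpinb2, chr1:107511173-107511422, plus strand: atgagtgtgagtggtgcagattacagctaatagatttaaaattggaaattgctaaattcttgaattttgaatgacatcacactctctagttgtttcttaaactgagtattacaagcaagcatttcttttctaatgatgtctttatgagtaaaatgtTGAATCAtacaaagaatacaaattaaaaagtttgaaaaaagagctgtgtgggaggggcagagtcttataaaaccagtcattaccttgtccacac
F3, chr3:121723287-121723536, plus strand: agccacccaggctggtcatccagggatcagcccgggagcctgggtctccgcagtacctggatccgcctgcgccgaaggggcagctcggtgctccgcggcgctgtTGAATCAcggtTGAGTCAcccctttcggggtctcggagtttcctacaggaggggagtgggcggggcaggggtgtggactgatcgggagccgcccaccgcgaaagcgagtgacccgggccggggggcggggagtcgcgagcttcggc
The motif began 69 bases before the start of Plaur, 94 bases before that of Serpinb2, and 146 and 135 bases before that of F3. In windows of 300 bases, 250 before and 50 after the start, TGANTCA occurred in 7.93% of 27025 promoters. Serpinb2 also held TATAAA, the TATA box, 29 bases before the start (14.2% of promoters held it), and neither Plaur nor F3 had it before the start. Serpinb2 had a second annotated start, at chr1:107511510, whose window is not printed. From that start TGANTCA began 181 bases and TATAAA 116 bases upstream. GGGCGG, the letters bound by Sp1, occurred 3 times in Plaur, 3 times in F3 and 6 times in Serpine2, some of them overlapping, against at least once in 35.9% of promoters. The window of Serpine2 overlapped an annotated exon of a longer transcript by 31 bases and is not printed. TGACGTCA (CRE, in 1.88% of promoters), CAGCTG (an E-box, in 16.1%) and CATTCC (TEAD, in 14.6%), searched on both strands, occurred in none of the 4. A match is a description of letters only.

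Of 62849 barcodes 61673 passed the cell filter, and a sample held 133608357 to 193380549 UMIs (unique molecular identifiers, which count each captured RNA molecule once) in them. Pairs of libraries shared 23 to 35 barcodes, at most 0.369% of the smaller one. Young replicate 1 and old replicate 1 were counted on a shorter gene list of 21849 features and with an earlier program version than the other 4 samples, which used a list of 32285 features. The myogenic label was checked with 10 markers, whose summed level was 416 to 2331 CPM (UMI counts scaled to a common library total) in the young and 328 to 3797 CPM in the old samples. Myod1 was at 42.3 CPM or more in every sample, while Pax7, the satellite-cell factor, was at 0.0245 CPM in young replicate 3. Myf5 was at 0.00883 CPM in young replicate 1 and at 10.8 to 53.3 CPM in the other samples. Des ranged from 2.48 CPM in young replicate 3 to 455 CPM in old replicate 3. Endothelial markers summed to 1.18 to 2.00 CPM in the old samples and 1.48 to 59.8 CPM in the young ones, and the highest value was almost wholly Tek (59.1 CPM in young replicate 2). Lymphoid markers summed to at most 0.525 CPM and macrophage markers to at most 9.80 CPM, with C1qb at 0 in every sample and Ptprc at 0.0477 CPM or less. Smooth muscle and pericyte markers summed to 17.9 to 92.7 CPM in young and 13.3 to 43.2 CPM in old samples. Schwann markers summed to 0.945 to 22.5 CPM in young and 1.41 to 4.18 CPM in old samples. Both highest values came from young replicate 2, mostly through Notch3 (68.6 CPM) and Ngfr (19.9 CPM). Of the fibro-adipogenic markers, which summed to 301 to 447 CPM in young and 311 to 489 CPM in old samples, Lum was at 0.00580 CPM or less and Pdgfra at 1.88 CPM or less, and Gsn and Col3a1 held most of the sum. Smoc2 stood at 103 CPM in young replicate 2. Cd34 was at 12.3 ± 8.01 CPM in young and 54.4 ± 46.6 CPM in old samples and Ly6a at 13.5 ± 10.1 and 54.1 ± 58.1 CPM (SD, n = 3), and their part in the differences between old and young samples was not tested.

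No member passed the test between old and young MDSPCs. Thbd was higher in every old sample than in any young one, as were 3.63% of all genes tested. The mean of Serpine2 was higher in the old group and that of F3 lower. Serpinb2 had the fold change of greatest size, -4.24, with an SE of 3.95. Levels are in CPM after scaling the libraries with TMM factors and are given in the order of replicates 1, 2 and 3. Fold changes are log2 values of old over young from edgeR's quasi-likelihood test with the gene list as a term, with model standard errors (SE), and p-values are two-sided. In that test 0.00689% of the 14512 genes rose (1 gene) and 0% fell after Benjamini-Hochberg adjustment, and 512 genes had an unadjusted p under 0.05. A test with DESeq2 called 1.51% of the genes in either direction (219) and again 0 members. In DESeq2 3 members had an unadjusted p under 0.05, as did 1068 of the 14512 genes. The adjusted edgeR p was 1.00 for each member. The members' median fold change was 0.10 against -0.01 over all genes. The 3′ counts are not scaled to gene length, so levels are compared between samples and not between genes.

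**Figure D1:**
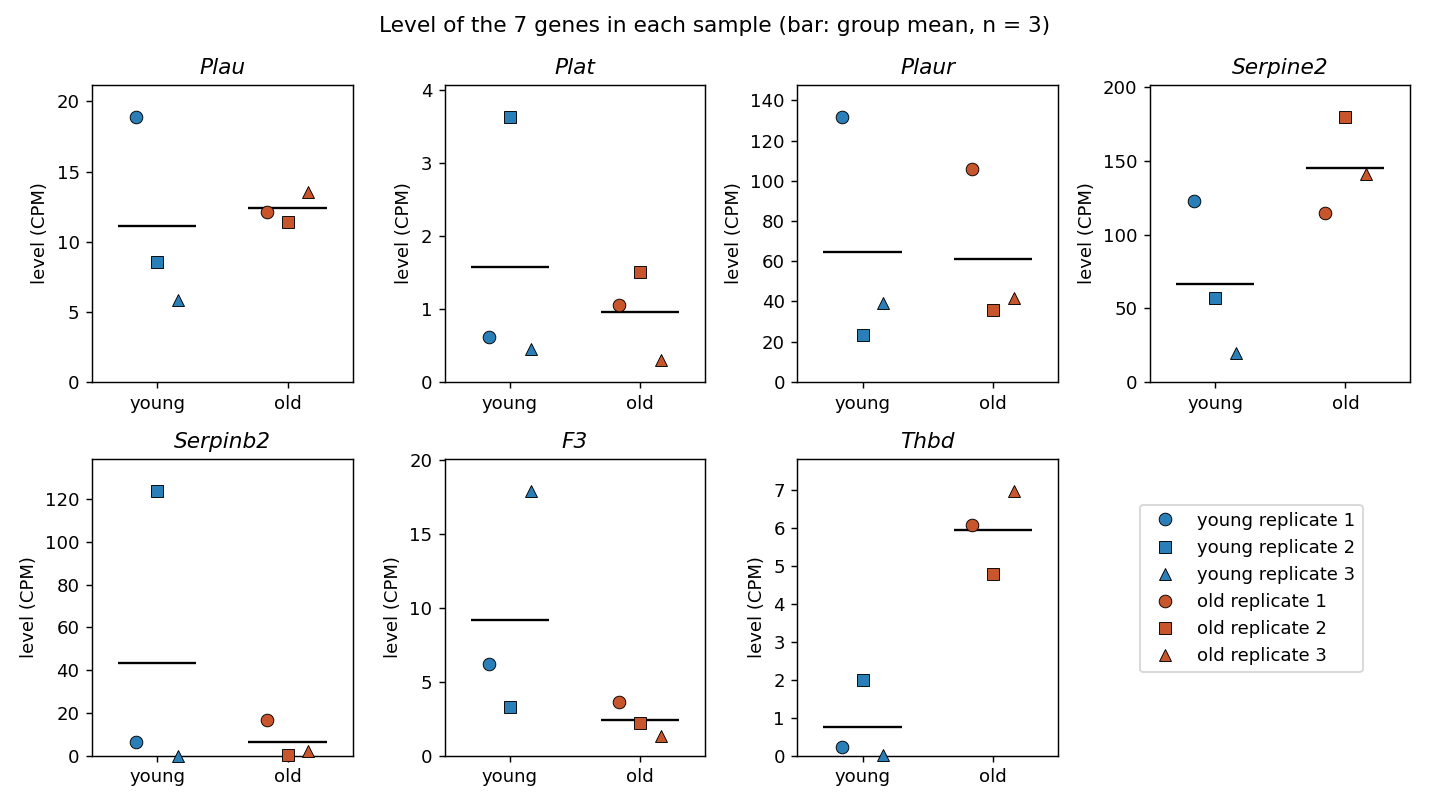
Level of each of the 7 genes (CPM, own linear axis per gene starting at 0) in the 3 young samples (blue) and 3 old samples (orange); the marker shape gives the replicate number and the bar the group mean. Of the 7, only Thbd had every old sample (4.78 to 6.98 CPM) above every young sample (at most 2.00 CPM), as had 3.63% of all genes tested. Serpinb2 stood at 124 CPM in young replicate 2.

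Plau (chr14:20836660-20843385, GRCm38, plus strand), the gene of urokinase, was at 18.9, 8.54 and 5.85 CPM in the young samples and 12.1, 11.4 and 13.6 CPM in the old ones. The group means were 11.1 ± 6.90 and 12.4 ± 1.09 CPM (SD, n = 3), and all old values lay within the young range. The fold change was 0.33 with an SE of 0.39. Plat (chr8:22757727-22782844, plus strand), the gene of the tissue-type activator, was at 0.618, 3.64 and 0.455 CPM in young and 1.06, 1.51 and 0.302 CPM in old samples. Its highest value came from young replicate 2 with 701 UMIs, and its lowest from old replicate 3 with 52 UMIs. The fold change of Plat was -0.55 with an SE of 1.11, and it turned to 0.87 without young replicate 2.

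Plaur (chr7:24462484-24475968, plus strand), the urokinase receptor, fell into a high and a low set of samples that cut across age. It was at 132, 23.5 and 39.1 CPM in the young samples and 106, 35.7 and 41.5 CPM in the old ones. Both high values belong to replicate 1 of each group, the 2 samples on the shorter gene list, and for this pattern the processing run and the populations cannot be told apart. The means were 64.8 ± 58.6 and 61.1 ± 39.0 CPM (SD, n = 3), and the fold change was 0.10 with an SE of 0.28. Ier3, a stress-responsive immediate-early gene, showed the same order of groups, at 262 and 154 CPM in the 2 replicates 1 and at 9.68 to 35.0 CPM in the other samples. Procr, the receptor of protein C, was at 33.4 and 21.1 CPM in these 2 and at 1.23 to 6.34 CPM elsewhere.

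Serpine2 (chr1:79794197-79861180, minus strand), the gene of protease nexin 1, was at 123, 57.0 and 19.9 CPM in the young samples and 114, 179.9 and 141 CPM in the old ones. The means were 66.6 ± 52.3 and 145 ± 33.0 CPM (SD, n = 3), 2.18 times higher in the old group, and the fold change was 1.37 with an SE of 0.64 (edgeR, unadjusted p = 0.0783, adjusted p = 1.00). Whether the groups overlapped depended on the library scaling. With TMM factors young replicate 1 lay above old replicate 1, while without them the young samples were at 104, 56.8 and 21.5 CPM and the old ones at 127, 188 and 133 CPM and did not overlap. Groups that did not overlap, with the old samples higher, made up 3.63% of all genes with the factors and 5.02% without them, and with the old samples lower 2.42% and 0.903%. The ratio on the shorter list, of old over young replicate 1, was -0.11 (log2), against 2.06 for the means of the other 4 samples. Without young replicate 3, the sample with the least Serpine2, the fold change fell to 0.78.

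Serpinb2 (chr1:107511423-107535478, plus strand), the gene of the type 2 inhibitor, known to be inducible and largely kept inside the cell, varied more between samples than any other member. It was at 6.57, 124 and 0.00978 CPM in the young samples and 16.9, 0.129 and 2.14 CPM in the old ones, which correspond to 744, 23886 and 2 UMIs and to 2827, 24 and 369 UMIs. The value of young replicate 3 was below the limit of 3 UMIs. The fitted fold change of -4.24 had an SE of 3.95, and it turned to 3.74 without young replicate 2. The gene model overlaps that of Serpinb10 on the same strand. The 5 other expressed genes that start within 2 Mb of Serpinb2 were compared with their mean level in the other samples, as log2(CPM + 1). Their median shift was taken less the median shift of all expressed genes, and the shift of Serpinb2 was not. The added 1 makes shifts smaller where levels are near 0 CPM. In young replicate 2 the shift was -0.21 for these neighbours and 5.18 for Serpinb2 itself. With these neighbours first, the shifts were 0.57 and 1.81 for old replicate 1 and -0.38 and -2.97 for old replicate 2. Old replicate 3 had -0.10 and -1.20, young replicate 1 had -0.26 and 0.33, and young replicate 3 had 0.11 and -3.16. A link between the neighbours and Serpinb2 was not tested. Jun was at 2974 CPM in young replicate 2 and at 72.7 to 140.1 CPM in the other 5. Plaur and F3, whose promoters also held the AP-1 motif, were at 23.5 and 3.32 CPM there. Any part of Jun in these levels was not tested. Tek and Smoc2 were also highest in that sample, at 59.1 and 103 CPM.

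F3 (chr3:121723537-121735048, plus strand) was at 6.17, 3.32 and 17.9 CPM in the young samples and 3.64, 2.19 and 1.35 CPM in the old ones. Old replicate 1 lay above young replicate 2, so the groups overlapped, with means of 9.13 ± 7.73 and 2.39 ± 1.16 CPM (SD, n = 3). The fold change was -1.99 with an SE of 0.80, and F3 was the 1 member with an unadjusted p under 0.05 (edgeR, unadjusted p = 0.0487, adjusted p = 1.00). Without young replicate 3 it was -0.85.

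Thbd (chr2:148404466-148408188, minus strand) was at 0.238, 2.00 and 0.00489 CPM in the young samples and 6.06, 4.78 and 6.98 CPM in the old ones. These are 27, 385 and 1 UMIs against 1017, 887 and 1203, and every old sample lay above every young one with either scaling. The same held for 3.63% of all genes tested with TMM factors and for 5.02% without them. The means were 0.747 ± 1.09 and 5.94 ± 1.10 CPM (SD, n = 3), 7.95 times higher in the old group. The fold change was 3.22 with an SE of 1.70 (edgeR, unadjusted p = 0.110, adjusted p = 1.00), and it was 6.91 without young replicate 2 and 2.55 without old replicate 1. Of the 8 endothelial markers, all but Tek were at 1.01 CPM or less in each sample. Tek was at 59.1 CPM in young replicate 2, the young sample with most Thbd, and at 0.360 CPM or less in the other samples. The part of endothelial markers in the levels of Thbd was not tested. The epithelial list was higher in each old sample (2.40 to 13.4 CPM against 0.636 to 1.78 CPM). Most of it was Krt18 in old replicates 2 and 3 (6.93 and 12.3 CPM). In old replicate 1 Cdh1 (1.20 CPM) and Krt8 (0.626 CPM) exceeded Krt18 (0.364 CPM). Krt5 was at 0 in the old samples and Epcam at 0.249 CPM or less in all. The part of the epithelial list in the result of Thbd was not tested.

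The other genes of the system gave no call between old and young in the edgeR test, and F2rl1 alone among them had an unadjusted p under 0.05. Of 19 further genes of the plasminogen system, 15 were tested and 0 passed in either direction, with a median fold change of 0.17 against -0.01 over all genes. The 3 with the largest fold change were Mrc2, a collagen receptor of the cell surface, at 1.28 (SE 0.70), the complement inhibitor Serping1 at 1.13 (SE 0.56) and Lrpap1, a chaperone of Lrp1, at 0.80 (SE 0.38). A2m was at 0 in every sample and Plg, the gene of plasminogen itself, at 0.0363 CPM or less. Of 22 further genes of coagulation and thrombin signalling, 15 were tested and 0 passed, with a median of 0.06. F2rl1, a protease-activated receptor, had the largest value, 4.16 (SE 1.39; edgeR, unadjusted p = 0.0260, adjusted p = 1.00), at levels of at most 0.748 CPM. Serpind1 was at -2.06 (SE 2.88) and Tfpi2 at 1.89 (SE 1.31). The thrombin receptor F2r was at -0.43 (SE 0.45), the clearance receptor Lrp1 at 0.33 (SE 0.79), the inhibitor of tissue factor Tfpi at -0.26 (SE 1.61) and neuroserpin (Serpini1) at -0.02 (SE 0.58). Of the 10 immediate-early genes 0 passed, and the largest values were Jun at -2.49 (SE 1.60), Atf3 at -0.78 (SE 0.77) and Dusp1 at -0.77 (SE 0.84).

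The share of cells with at least 1 UMI was measured after every cell was thinned to 5000 UMIs. Serpine2 was seen in 35.1%, 21.3% and 9.29% of the cells of the young samples and in 40.6%, 57.1% and 44.0% of those of the old ones. These shares did not overlap, and the means differed by 25.3 percentage points (two-sided exact permutation test, p = 0.1, the smallest that 3 against 3 samples can give). Thinned shares carry no library scaling factor, and with TMM factors the levels of Serpine2 did overlap. Of all genes tested, 4.82% had shares that did not overlap with the old samples higher, and 1.05% with the old samples lower. Thbd was seen in 0.0829%, 0.808% and 0.00941% of young and 2.94%, 2.55% and 1.95% of old cells, a difference of 2.18 points (exact permutation test, p = 0.1). Plaur was seen in 39.8%, 10.1% and 18.3% of young and 41.2%, 14.9% and 15.2% of old cells (p = 0.9, exact permutation test). F3 was seen in 2.75%, 1.68% and 8.94% of young and 1.97%, 1.06% and 0.460% of old cells (p = 0.2, exact permutation test). The shares of Plau ranged from 3.22% to 7.47% and those of Plat from 0.181% to 1.69%. How much free RNA adds to such shares was not measured, since no cell type that should lack these genes was identified here. The lowest share was that of Serpinb2 in young replicate 3, 0 of 10631 cells, which allows a share of cells with a UMI of up to 0.0282% (a limit of 3 cells, for counting error only). That sample had 2 Serpinb2 UMIs before thinning. Without thinning the share of Serpine2 in that sample was 25.3% and that of old replicate 2 88.2%.

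If the UMIs of a gene fell on cells at random, a fixed share of cells would hold at least 1. The observed share was 0.876 to 0.928 times that share for Serpine2, at least 0.90 and at most 0.966 times for Plaur and 0.939 to 0.980 times for Plau. Over the 6 members other than Serpinb2 the ratio was 0.856 to 1.01 wherever 20 or more cells had a UMI. For a gene seen in few cells, such as Plat or Thbd, the ratio lies near 1 for many patterns of spread, so it says little of them. Serpinb2 differed in young replicate 2, where 16.7% of cells had a UMI against 41.0% for an even spread, a ratio of 0.408. There the 10% of cells with most Serpinb2 held 83.2% of its UMIs, and 1 cell held 297 before thinning. That share also depends on the number of UMIs, and for Plau, with 1646 UMIs in the same sample, it was 84.5%. In the other 3 samples where 20 or more cells had a Serpinb2 UMI, the ratio of observed to expected share was 0.794, 0.840 and 0.811 (young replicate 1, old replicate 1 and old replicate 3).

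**Figure D2:**
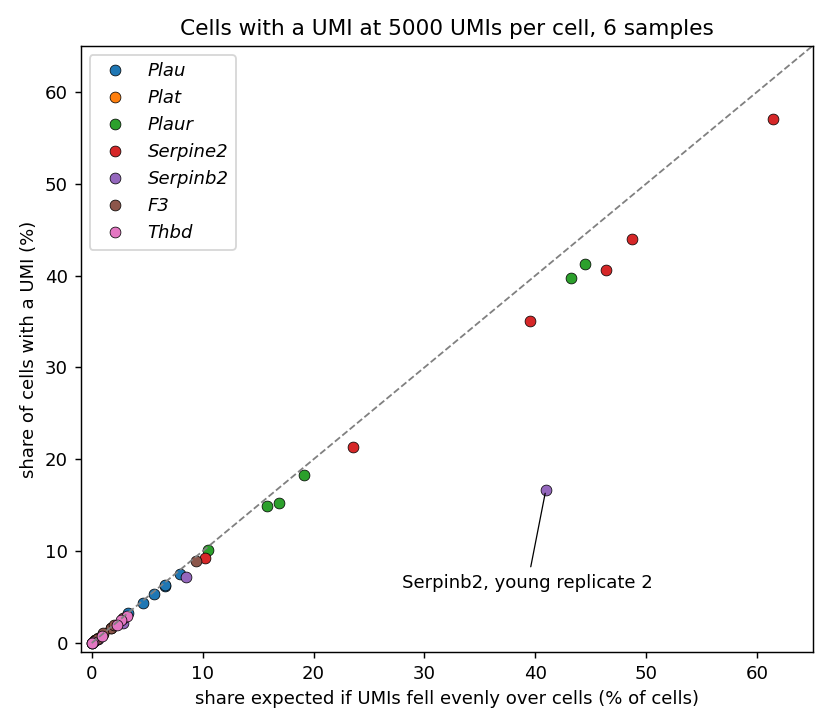
Share of cells with at least 1 UMI of a gene (%, y axis) against the share expected if its UMIs fell evenly over the cells (%, x axis), at 5000 UMIs per cell; each point is 1 gene in 1 sample, the dashed line marks equality. Serpinb2 in young replicate 2 lies far below the line (16.7% against 41.0%), and the points of Serpine2 and Plaur lie slightly below it.

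The cells rich in Serpinb2 were compared with the cells of the same sample that had none, as a description with no test, since they were picked by their Serpinb2 and come from single samples. In young replicate 2, 271 cells (2.55%) had 5 or more thinned UMIs. They held 311 UMIs of Lce3c, a late cornified envelope gene of the epidermis, against 2 in the 8869 cells without Serpinb2, and 42 UMIs of Thbd against 38, or 31.0 against 0.857 CPM. Lce1g was at 129.9 against 0.722 CPM, and its near-identical family members make that assignment uncertain. The LIM-domain gene Lmcd1 was at 204 against 4.87 CPM and the cadherin gene Fat3 at 232 against 9.0 CPM. Of the 10 myogenic markers 8 were lower in them and 2 higher, with summed levels of 1659 against 2491 CPM. Among the genes with the lowest ratios, named after their values were seen, Myog was at 29.5 against 439.6 CPM, Tnnt1 at 18.5 against 246 CPM and Myh3 at 4.43 against 39.0 CPM. Mitotic cells, a class defined further on by RNA of 10 genes, made up 41.0% of them and 40.0% of the cells without Serpinb2. Jun was at 5629 against 2671 CPM. With 2 or more Serpinb2 UMIs as the limit, 865 cells of this sample counted as rich. Thbd was then at 12.5 against 0.857 CPM, Lmcd1 at 81.6 against 4.87 CPM and Fat3 at 104.5 against 9.0 CPM. In old replicate 1, 122 cells had 2 or more Serpinb2 UMIs, and the myogenic markers summed to 128 CPM in them and 387 CPM in the 9195 cells without. Mylpf, a myosin light chain, was at 1.64 against 61.5 CPM (1 against 2828 UMIs) and Myod1 at 9.84 against 70.5 CPM (6 against 3239 UMIs). Lce1g was at 295 against 90.9 CPM, with 180 UMIs in the 122 cells and the same uncertainty of assignment. Tagln, an actin-binding protein, was represented there by 57 UMIs against 124 in the cells without Serpinb2, and Lce3c by 0 in both. Thbd was lower in the 122 cells, at 3.28 against 6.33 CPM (2 against 291 UMIs). Lmcd1 was at 1.64 against 0.631 CPM (1 against 29 UMIs), and Fat3 had 0 against 5 UMIs. Mitotic cells made up 47.5% of these 122 cells and 57.5% of the cells without Serpinb2. In young replicate 1 only 24 cells reached 2 UMIs. Tagln was at 208 CPM in them (25 UMIs) against 20.5 CPM in the 8257 cells without Serpinb2. Myog, Myod1 and Des had 0 UMIs in them, against 40.5, 60.6 and 61.6 CPM, and with so few cells a 0 says little. Of the 10 myogenic markers 8 were lower and 1 higher, with summed levels of 100 against 515 CPM. Of the 24 cells 16.7% were mitotic, against 33.1% of the cells without Serpinb2. Lce1g was at 1317 CPM in these 24 cells (158 UMIs) against 262 CPM in the cells without Serpinb2. Lce1h was at 250 CPM (30 UMIs) against 9.52 CPM. Thbd and Lmcd1 had 0 UMIs in the 24 cells against 6 and 57 in the cells without Serpinb2, and Fat3 had 0 in both.

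Serpinb2 and Thbd also shared cells in young replicate 2, where 48 cells had a UMI of both against 14.4 expected if the genes were independent, a ratio of 3.34. In old replicate 3, 13 cells had both against 1.07 expected, a ratio of 12.1. In old replicate 1 there were 19 against 20.9, a ratio of 0.910, in young replicate 1 there was 1 against 0.155, and in old replicate 2 there were 0 against 0.102. Plaur and Serpine2 met in 0.941 to 1.08 times the expected number of cells in all 6 samples, and Plau and Plaur in 0.870 to 1.20 times. Other pairs lay further from 1, in both directions. In old replicate 3, Plaur met Serpinb2 in 22 cells against 8.38 expected (ratio 2.63) and Thbd in 65 against 36.1 (1.80). Serpine2 met Serpinb2 there in 12 against 24.2 (0.496). In young replicate 2, Serpine2 and Thbd met in 31 cells against 18.3 (1.69), and Plau and Serpinb2 in 50 against 77.1 (0.648).

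In the edgeR fit over all 6 samples, cells with RNA of the differentiation factor myogenin held less RNA of 5 of the 7 members. For Plat and Serpine2 some samples went the other way. The cells were split by Myog, the gene of myogenin, into those with 1 or more UMIs after thinning and those with 0. Young samples had 283, 2192 and 523 Myog-positive cells and old samples 63, 1250 and 5582, or 0.636% to 45.9% of cells. Counts were summed per sample and class and tested with edgeR with the sample as a block, over all 6 samples. In this test 13.4% of 12360 genes rose and 16.7% fell, so 5 falling members stand against that background, and 0 members rose. The members' median fold change was -0.89 against -0.06 over all genes. The interaction of this contrast with age passed for 0% of the genes (edgeR), of which 304 had an unadjusted p under 0.05.

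Plaur fell in every sample, from 133, 24.2 and 39.4 CPM in the Myog-negative to 58.5, 14.5 and 30.8 CPM in the Myog-positive cells of young samples. From the old samples came values of 110.3, 34.9 and 54.6 CPM in Myog-negative and 85.3, 17.9 and 20.1 CPM in Myog-positive cells. The fold change was -0.89 (SE 0.14), or 1.85-fold lower (edgeR, adjusted p = 0.00179). Serpinb2 was lower in Myog-positive cells in the 4 samples with UMIs in both classes, of which young replicate 1 and old replicate 1 had 3 UMIs each in the Myog-positive class, and fell 4.19-fold overall (log2 fold change -2.07, SE 0.19, edgeR adjusted p = 0.000127). Most of its UMIs came from young replicate 2, where it was at 26.8 CPM in Myog-positive and 125.7 CPM in Myog-negative cells, with 273 and 5336 UMIs. Without young replicate 2 the fold change was -1.72 (adjusted p = 0.00821).

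Thbd fell 3.68-fold in Myog-positive cells (log2 fold change -1.88, SE 0.24, edgeR adjusted p = 0.000419). Only young replicate 2, old replicate 2 and old replicate 3 had Thbd UMIs in both classes, and it was lower in the Myog-positive cells of each. In old replicate 3, the sample with most Myog-positive cells, it was at 1.91 CPM in them and 7.23 CPM in the others, from 48 and 232 UMIs. The Myog-positive cells of young replicates 1 and 3 and old replicate 1 held 0 UMIs against 7, 1 and 316 in the others, and with few such cells these samples say little. Serpine2 fell 1.42-fold (log2 fold change -0.51, SE 0.14, edgeR adjusted p = 0.0218). It was lower in 5 samples, such as 132 against 189 CPM in old replicate 2 and 51.4 against 119 CPM in young replicate 1, and higher in young replicate 3, at 22.9 against 19.6 CPM. The call was lost without any 1 of the 3 old samples, with adjusted p-values of 0.0532 to 0.0596.

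Plat fell 2.54-fold (log2 fold change -1.35, SE 0.43, edgeR adjusted p = 0.0345) from few UMIs, 26 in all Myog-positive cells together, and DESeq2 did not call it (adjusted p = 0.185). Plat was lower in 4 samples and higher in 2. The 2 were young replicate 3 (1.03 against 0.527 CPM) and old replicate 1 (2.84 against 1.04 CPM). Their Myog-positive cells held 3 and 1 Plat UMIs. Without young replicate 2 the adjusted p of Plat was 0.169 (edgeR). F3 was lower in 5 samples and higher in young replicate 3, and did not pass (-0.66, SE 0.35, adjusted p = 0.189 with edgeR). Over the young samples its log2 ratio was -2.11, -0.39 and 0.42, and from old replicates 2 and 3 came ratios of -1.83 and -1.91, with 0 UMIs in the Myog-positive cells of old replicate 1 and 2 in those of young replicate 1. The range of the young samples thus held the old values, and the interaction with age had an unadjusted p of 0.0138 and an adjusted p of 1.00 (edgeR). Plau did not differ in a common direction, with 4 samples lower and 2 higher and a fold change of 0.03 (SE 0.20).

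**Figure D3:**
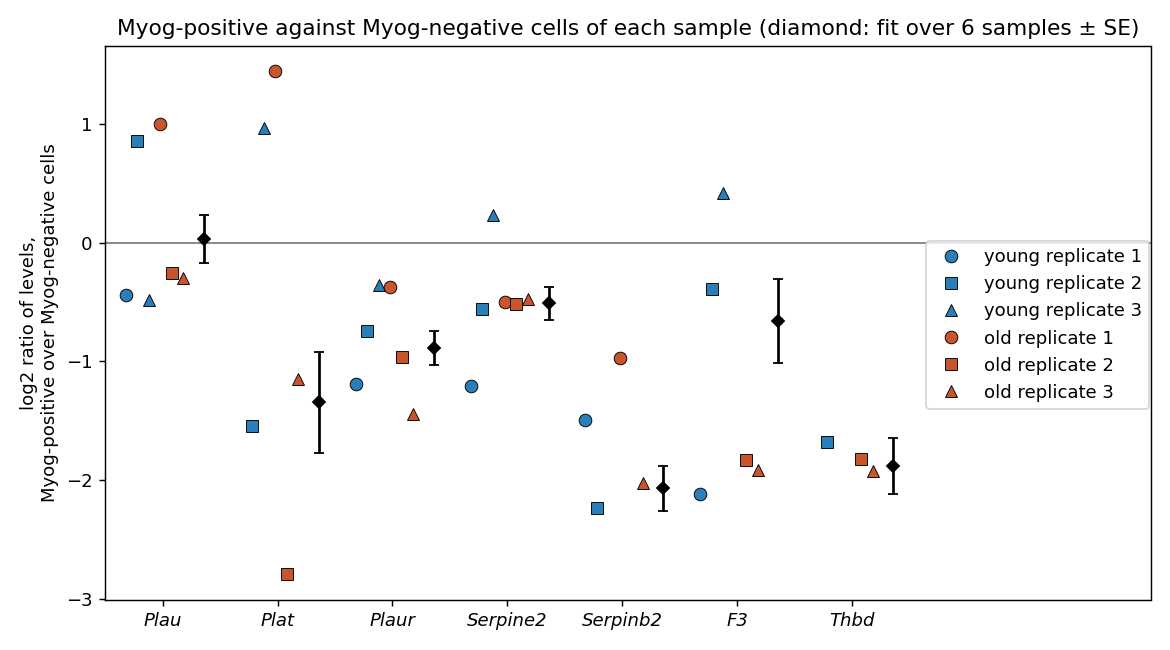
Log2 ratio of a gene's level in Myog-positive over Myog-negative cells of the same sample (y axis) for the 7 genes (x axis), by group (colour) and replicate (shape); the diamonds give the fit over all 6 samples with its SE, and a ratio with 0 UMIs in a class is not drawn. All drawn points of Plaur, Serpinb2 and Thbd lie below 0, and those of Plau and Plat lie on both sides.

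The fall of Plaur, Serpine2 and Serpinb2 was also seen among cells of the non-mitotic class. In each of the 6 samples the share of mitotic cells, a class defined further on, was lower among Myog-positive cells (6.24% to 56.8%) than among all thinned cells (25.0% to 59.7%), a difference that was not tested. With only non-mitotic cells in both classes, a setting chosen after seeing the data, Plaur was at -1.21, Serpine2 at -0.79 and Serpinb2 at -2.38. All 3 were called, of 5 members tested, while 1912 of 11080 genes fell and 1510 rose. Plat and Thbd had too few UMIs to be tested, and any part of the cell cycle in the members' fall was not tested. With the 4 samples of the longer list alone 4 members fell, while 1559 of 12538 genes fell and 1471 rose. With the 2 samples of the shorter list alone 2 of the 6 members tested fell, while 1060 of 12161 genes fell and 1148 rose. Of the fibro-adipogenic markers, 0 of 7 tested rose and 2 fell in Myog-positive cells, Cd34 by 1.11 and Smoc2 by 0.87 on the log2 scale, and their part in the members' fall was not tested.

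Partners of the members were read against the same background of 16.7% of genes falling and 13.4% rising. Of the 19 other genes of the plasminogen system 13 were tested, 6 fell and 1 rose. The plasminogen-binding annexin pair S100a10 and Anxa2 fell by 0.60 (SE 0.09) and 0.48 (SE 0.12), and the endocytic receptor Lrp1 fell by 0.55 (SE 0.10). The integrin subunit Itgav fell by 0.41, the serpin Serpinb6a by 0.37 and the enolase gene Eno1, whose protein can bind plasminogen at the cell surface, by 0.30, while Lrpap1 rose by 0.77 (SE 0.12). The list's median was -0.37. Of the coagulation genes 9 were tested, 3 fell and 0 rose: Procr by 1.38 (SE 0.27), the protein C cofactor gene Pros1 by 0.70 (SE 0.21) and F2r by 0.59 (SE 0.08), with a list median of -0.59. Tfpi was at -0.05 (SE 0.10). Of the 10 immediate-early genes 3 fell, Ier3 by 1.59 (SE 0.12), Fosl1, an AP-1 member, by 1.34 (SE 0.11) and Ier2 by 0.61 (SE 0.12). The AP-1 member Junb rose by 0.64 (SE 0.08) and Egr1 by 0.67 (SE 0.15), and Jun was at 0.16 (SE 0.16).

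Between mitotic and non-mitotic cells, 1 member rose and 1 fell. Cells with 5 or more UMIs over 10 mitotic genes such as Top2a and Plk1 were compared with cells that had 0 or 1 in the same sample. The class is named after these genes and held 25.0% to 59.7% of thinned cells. Cells in other phases of the cycle that hold such RNA were not separated from it. Of 12123 genes 20.6% rose and 27.4% fell. Plaur rose, by 0.19 on the log2 scale (SE 0.07, edgeR adjusted p = 0.0388), and was higher in 5 of 6 samples. In young replicate 3, among the 5, it was nearly equal, at 37.86 against 37.84 CPM. Plat fell by 0.67 (SE 0.25, edgeR adjusted p = 0.0493), and was lower in 4 samples and higher in 2. It had few UMIs, 6 to 54 per sample in mitotic and 8 to 82 in non-mitotic cells. DESeq2 called neither (adjusted p = 0.0725 and 0.115), and 0 to 2 members were called when single samples were left out. The other 5 members ranged from -0.30 (Plau) to 0.29 (F3), and the members' median was -0.13 against -0.05 over all genes. Of the other plasminogen genes 7 of 13 fell and 0 rose, the largest being Thbs1, a matrix glycoprotein, at -0.70 (SE 0.10), Lrpap1 at -0.49, Igf2r at -0.29, Serpinb6a at -0.26, the plasminogen receptor Plgrkt at -0.25, Lrp1 at -0.16 and Anxa2 at -0.12. Procr fell by 0.49 (SE 0.12), the 1 call among 9 coagulation genes. Fosl1 rose by 0.65 (SE 0.13), while Egr1, Atf3, Dusp1 and Junb fell by 0.88, 0.89, 0.38 and 0.27. The interaction with age passed for 0% of the genes (edgeR), of which 290 had an unadjusted p under 0.05. Thbd had an unadjusted interaction p of 0.0247 (adjusted p = 1.00, edgeR).

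**Figure D4:**
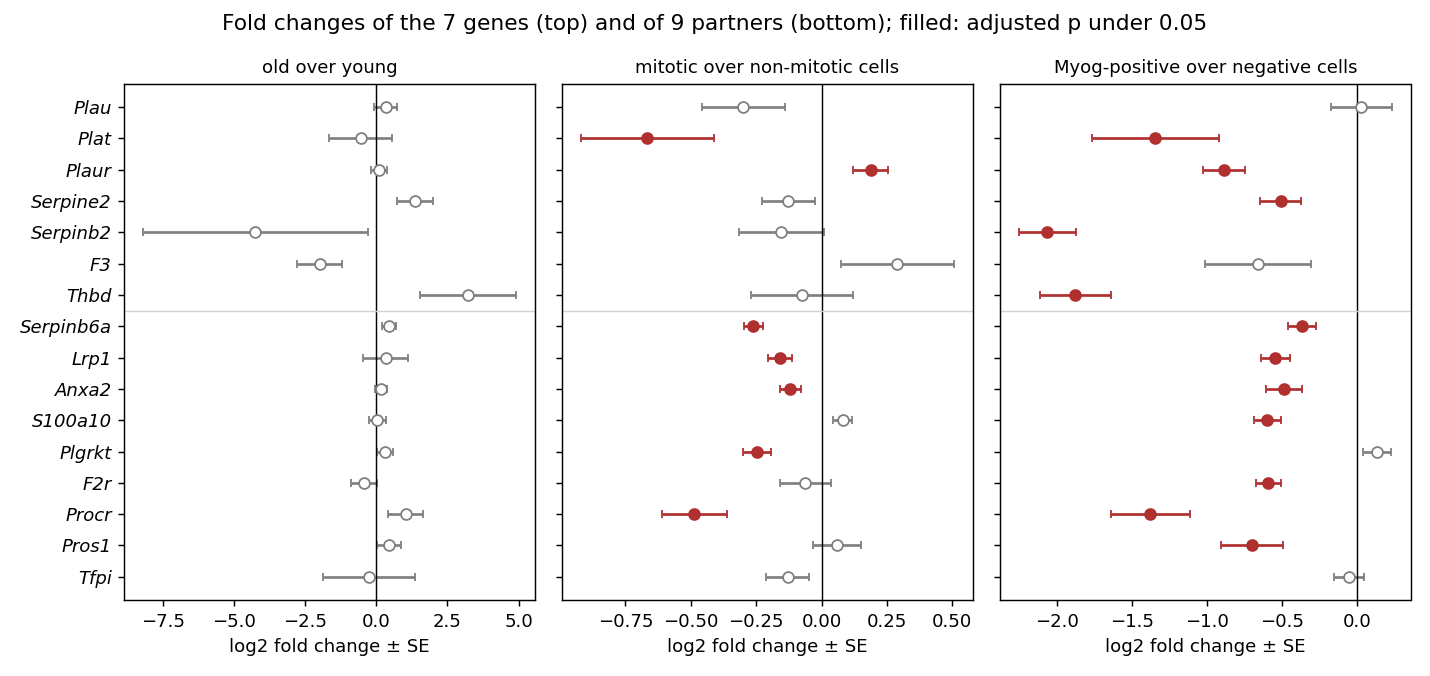
Log2 fold change with its SE (x axis, own scale per panel) of the 7 genes (upper rows) and 9 partners (lower rows) in old over young samples (left), mitotic over non-mitotic cells (middle) and Myog-positive over Myog-negative cells (right); filled red points have an adjusted p under 0.05 (edgeR). The left panel has no filled point, and the right panel has 5 filled points among the 7 genes, all below 0.

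For each member the 3 genes with the most similar level over the 6 samples were listed, as a description over 6 points that share their libraries. Pearson's r of log2(CPM + 1) was computed over 6482 genes with a mean log2 CPM above 4. Plaur was most like Pigt, 9130401M01Rik and Ier3 (r = 0.999, 0.993 and 0.992), and 212 genes had an r above 0.9 with it. Serpine2 was most like Slc9a3r1, Ankrd1 and Sumf2 (r = 0.990, 0.976 and 0.972). Ankrd1, a muscle ankyrin repeat gene, was at 564, 208 and 120.1 CPM in young and 564, 650.1 and 542 CPM in old samples. Thbd was most like Prrg4, Gstm5 and Anxa3 (r = 0.961, 0.944 and 0.942), with 6 genes above 0.9. Serpinb2 was most like Tbc1d15, Gnb4 and Rnf19b (r = 0.981, 0.971 and 0.962), and F3 most like Bcl9l, Pimreg and Rcbtb1 (r = 0.973, 0.970 and 0.969). Plau was most like Chmp2a, Pld3 and Cdkn3 (r = 0.989, 0.986 and 0.986), and Plat most like Atp5b, Map1b and Map3k7 (r = 0.982, 0.975 and 0.962).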

How the data were processed

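The authors deposited, per sample, a matrix of raw UMI counts per gene and barcode. Per the file headers it was made with Cell Ranger 7.0.0 (replicate 1 of each group) or 7.2.0; the submitters' processing notes name Cell Ranger 7.2.0, Seurat 5.134 and mm10. Treatment of intronic reads is not given in the sources used here. A barcode counted as a cell with at least 1000 UMIs, at least 500 genes and under 15% mitochondrial UMIs; no doublet caller was run, and the deepest cells (0.8% per 1000 barcodes) were removed as an alternative. Counts of shared Ensembl identifiers were summed per sample. The main test was the one of edgeR 4.0.16, run in R 4.3.3 (scaling by TMM, filterByExpr, robust quasi-likelihood F test, Benjamini-Hochberg over all genes, threshold 0.05); DESeq2 1.42.0 was an alternative. For the SE, the size of the fold change was divided by the root of F. Class contrasts and shares used cells thinned to 5000 UMIs, which left out 1368 shallower cells. The script was tested on simulated counts that spread less between samples than these data, which checks its working and not its power here. Wilson 95% intervals of the shares, which cover counting error only, are at most ±1.05 percentage points. With nothing on separate animals in the labels, p-values measure the spread between these populations.

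Members and lists were chosen with earlier results of these data known. Named were all 7 members, list genes past the threshold or else the 3 with the largest fold change, 5 partners (Serpini1, Lrp1, F2r, F2rl1 and Tfpi) and the 3 most similar genes per member. Genes of the cells rich in Serpinb2, and Krt18, Tek, Notch3, Ngfr and Procr by sample, were named after their values were seen. The values of 1 further gene are not reported here. Gene positions are from GENCODE M21 (GRCm38).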

Additional observations from a re-analysis of the deposited data

How the results depend on the processing

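Between old and young samples, 0 members were called in every alternative, and the total of called genes was 219 with DESeq2, 0 without the gene list term, 0 on the longer list only, and 0 to 3 when single samples were left out. The replicate numbers are not known to pair samples: deviations of same-numbered samples correlated at 0.44, 0.32 and -0.11, and not every sample correlated best with its own number. With the replicate block 1 gene was called, 0 of them members, and the fold change of Serpinb2 was 1.14 and that of Tfpi 0.29. In the Myog contrast 3 to 6 members were called when single samples were left out (2474 to 3780 genes), and 2 on the shorter list only (2208 genes). In non-mitotic cells only, 3 were called, while 1510 of 11080 genes rose and 1912 fell. In the mitotic contrast 0 to 2 members were called when single samples were left out (4936 to 5531 genes), and 0 on the shorter list only (2371 genes). With stricter limits 1 was called in it, while 2479 of 11629 genes rose and 3081 fell. Without the filter on low counts 1 was called, while 2576 of 17792 genes rose and 3137 fell. With DESeq2 0 were called, while 2165 of 12123 genes rose and 3124 fell. The class contrasts by gene list and in non-mitotic cells, and the mean over cells, were chosen after seeing the data.

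Directions turned as follows (log2 unless given). Old over young: Plaur -0.085 without the gene list term and, as a ratio of group means, 0.11 with the mean over cells against -0.09; Serpini1 0.041 without the gene list term and 0.012 without the deepest cells; Tfpi 1.04 on the longer list. When single samples were left out, Plaur ranged from -0.16 to 0.30, Plat from -1.17 to 0.87, Serpinb2 from -5.77 to 3.74, Serpini1 from -0.25 to 0.26, Lrp1 from -0.25 to 1.57, Tfpi from -1.73 to 1.04, Serpind1 from -3.59 to 3.51, Tfpi2 from -0.071 to 2.77, Jun from -3.59 to 0.50 and Dusp1 from -1.24 to 0.74. The differences in shares then ranged from -7.67 to 9.56 points for Plaur, -0.427 to 0.277 for Plat and -6.89 to 1.45 for Serpinb2, and that of Plat was 0.00666 points at 2 or more UMIs. Mitotic cells: Plat 0.23, F3 -0.14 and Serpini1 -0.14 on the shorter list; Serpinb2 0.13, Thbd 0.079 and F2r 0.062 on the longer list; without single samples Thbd ranged from -0.23 to 0.11 and F2r from -0.13 to 0.018. Myog-positive cells: Plau -0.020 in non-mitotic cells and -0.0066 with stricter limits, ranging from -0.23 to 0.14 without single samples; Tfpi 0.034 on the shorter list, 0.13 in non-mitotic cells, 0.014 with stricter limits and 0.022 without thinning, ranging from -0.13 to 0.016. The cause was not tested. At this depth Plat and Thbd had too few UMIs for some class contrasts.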
